A study of Mus musculus with 7 samples.

Results

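The 10 iron and heme handling genes described here are Slc40a1, Hamp, Tfrc, Steap4, Slc11a1, Slc11a2, Fth1, Ftl1, Alas1 and Ireb2. They were taken by symbol from the deposited tables, which list 48440 genes for the LPS experiment and 55352 for the AAV experiment. All 10 were found in both tables. A second row named Fth1 in the LPS table is a processed pseudogene with 0, 0 and 1 reads, and it was left out.

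Macrophages take up iron from transferrin and from engulfed red cells, store it in ferritin, use it for heme and iron-sulfur clusters, and release it through ferroportin, the product of Slc40a1. Hepcidin, the hormone encoded by Hamp, binds ferroportin and leads to its degradation. Much of this system is set after transcription: iron regulatory proteins, including the product of Ireb2, bind hairpins called iron-responsive elements in the untranslated regions of several of these mRNAs and change their translation or decay. During infection macrophages are known to retain iron.

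Bone-marrow-derived macrophages (BMDMs) were grown with M-CSF from marrow of wild-type C57BL/6 mice, which the study's methods describe as several weeks old and of both sexes. In the LPS experiment, BMDMs were left without treatment (0 h) or received LPS, the endotoxin of Gram-negative bacteria, at 100 ng per ml for 2 or 4 h, and each time point is a single library. In the AAV experiment, BMDMs carried an adeno-associated virus for GFP or for Shisa3 for 48 h, with 2 samples per group and no LPS. The vector used the CAG promoter, which is active in most cell types, so any other cell in the cultures could also express the transgene. The number of animals is not given in the sources used here. Nothing says that samples of a group came from separate cultures or animals, so p-values measure only the spread between these samples.

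The LPS values are read counts divided by 1 factor per library, and the reads recovered from them came to 15588502, 7263258 and 32659392 for the libraries of 0, 2 and 4 h. The AAV values were read as TPM (transcripts per 1000000, which corrects for transcript length), and their depth is unknown. Shisa3 itself measured 7.88 and 10.85 TPM in AAV-GFP and 12.31 and 17.81 TPM in AAV-Shisa3. Both AAV-Shisa3 samples were higher, but the transgene's own gene did not pass the threshold (limma, log2 fold change 0.62, adjusted p = 0.138). The study reports, from its measurements of mRNA and protein, that the AAV-Shisa3 vector did overexpress Shisa3 in BMDMs. Macrophage markers were above 0 in every sample for 8 of 8 genes. Erythroid markers, which would bring heme genes with them, summed to 1.01 to 3.46 CPM (counts per 1000000 reads) in the LPS libraries and to 0.70 to 1.92 TPM in the AAV samples, over 9 genes found of 10 listed, with 2 to 6 of them at 0 in each sample. Lymphocyte markers summed to at most 0.33 TPM in an AAV sample and at most 0.13 CPM in an LPS library. Neutrophil markers (9 genes) summed to 473, 629 and 397 CPM at 0, 2 and 4 h, and on the authors' scaling to 4745, 9982 and 7046. They summed to 593 and 565 TPM in AAV-GFP and to 1092 and 683 TPM in AAV-Shisa3, so each AAV-Shisa3 sample exceeded each AAV-GFP sample. The part of these cells in the AAV results was not tested. In bulk RNA, fewer cells of a type and less RNA per cell cannot be told apart.

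The transcripts of the members were searched for hairpins of the iron-responsive-element type, because these elements tie the mRNAs of storage, uptake and export to the same iron sensor. The search asked for the loop CAGTGN on the sense strand, a stem of 5 pairs, a bulged C below it and at least 4 of 5 further pairs. Of 55450 mouse genes with a transcript in GENCODE M21, 45 (0.0812%) held such a hairpin, and 4 of the 10 members did. In Slc40a1, Fth1 and Ftl1 it lay in the 5′ UTR, the position from which these elements are known to block translation when iron is low. In Tfrc there were 4 in the 3′ UTR, the position from which they are known to protect the mRNA from decay. The loop is in capitals, and sequences are the sense strand of the M21 transcripts.
Slc40a1, 5′ UTR: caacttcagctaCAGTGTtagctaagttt
Fth1, 5′ UTR: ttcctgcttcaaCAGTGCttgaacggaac
Ftl1, 5′ UTR: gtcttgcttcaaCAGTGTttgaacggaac
Tfrc, 3′ UTR: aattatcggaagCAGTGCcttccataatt
Tfrc, 3′ UTR: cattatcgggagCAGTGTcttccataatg
Tfrc, 3′ UTR: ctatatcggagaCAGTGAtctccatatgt
Tfrc, 3′ UTR: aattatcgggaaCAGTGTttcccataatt
Slc11a2, 3′ UTR, partial: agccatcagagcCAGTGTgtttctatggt
The last sequence, in the 3′ UTR of 1 of the 8 annotated Slc11a2 transcripts, has 4 of 5 pairs in the upper stem and 1 of 5 below the bulge, so it did not pass. A further partial match, in the coding sequence of Slc11a1, has 4 of 5 and 3 of 5 pairs and did not pass either. Such a match describes letters in a transcript and is not evidence of binding. The tables give 1 value per gene, so transcripts of Slc11a2 with and without that 3′ UTR were not told apart.

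After LPS the iron exporter gene was lower, while a divalent metal importer, a metalloreductase, the heavy ferritin chain and the first enzyme of heme synthesis were higher. At 4 h against 0 h, Slc40a1 was 17.2-fold lower, Slc11a2 13.5-fold higher, Steap4 969-fold higher, Alas1 3.01-fold higher and Fth1 2.35-fold higher. Of the 9 members with a mean value of at least 1, 4 were at least 2-fold higher at 4 h, 1 was at least 2-fold lower and 4 were neither. Among all 17854 genes kept, 22.2% were at least 2-fold higher and 23.6% at least 2-fold lower at 4 h. At 2 h, 3 members were at least 2-fold higher and 1 lower, against 20.5% and 24.7% of all genes. From 2 h to 4 h, 2 were at least 2-fold higher and 1 lower, against 17.9% and 15.2% of all genes. The members had a median log2 change of 0.48 after 2 h and 0.33 after 4 h, beside -0.05 and -0.04 for all genes. With 1 library per time point no difference had a replicate check and no test was made. Intervals on these folds are exact 95% intervals for counting error only, and log2 changes were taken on log2(value + 1).

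Slc40a1, on chromosome 1 of GRCm38 (45908068 to 45926523, minus strand), encodes ferroportin, the only known cellular iron exporter of mammals. Its value was 2331 at 0 h, 683 at 2 h and 136 at 4 h, from 3624, 313 and 250 reads. It was 3.41-fold lower at 2 h (interval 3.04 to 3.84) and 17.2-fold lower at 4 h (15.1 to 19.6). It was lower again at 4 h than at 2 h, and at 4 h its log2 change of -4.09 was at the percentile 0.717 of the genes kept. Hamp (chromosome 7, 30942368 to 30944032, minus strand), whose hormone acts on ferroportin, had 1, 0 and 2 reads, at or under the floor of 3 reads in every library. A change in Hamp was not detectable at this depth.

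Slc11a2 and Slc11a1 encode DMT1 and NRAMP1, related proton-coupled transporters of divalent metals. DMT1 moves ferrous iron from the gut lumen or the endosome into the cytosol. Where it is functional, NRAMP1 moves metals out of the phagosome and limits the growth of engulfed microbes. Whether the NRAMP1 protein works in the mouse strain used was not tested, and the Slc11a1 values describe RNA only. Slc11a2 (chromosome 15, 100387898 to 100425072, minus strand) had values of 511, 4876 and 6916 at 0, 2 and 4 h. It was 9.54-fold higher at 2 h (8.79 to 10.3) and 13.5-fold higher at 4 h (12.6 to 14.6), so most of the difference was present by 2 h. Slc11a1 (chromosome 1, 74375195 to 74386062, plus strand) had values of 3995, 5586 and 4207. It was 1.40-fold higher at 2 h and 1.05-fold higher at 4 h, and these directions turned with the reads scaled to library totals (log2 -0.18 and -0.75). The 2 transporter genes thus had unlike courses in the same libraries.

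Tfrc (chromosome 16, 32608920 to 32632794, plus strand), the transferrin receptor, had values of 1383, 976 and 901. It was 1.54-fold lower at 4 h (1.44 to 1.64), short of 2-fold. On the same scale the summed values of 6 proliferation genes were 10347, 13805 and 8445, higher at 2 h and lower at 4 h than at 0 h. Scaled to library totals they were 1032, 870 and 476 CPM, lower at both times, and their part in the level of Tfrc was not tested. Steap4 (chromosome 5, 7960457 to 7982213, plus strand), a metalloreductase that reduces ferric iron and copper, had 5 reads at 0 h, 643 at 2 h and 5734 at 4 h. Its values were 3.22, 1404 and 3116. It was 437-fold higher at 2 h (186 to 1349) and 969-fold higher at 4 h (415 to 2985), and the width of these intervals comes from the 5 reads at 0 h.

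The ferritin shell is built of heavy chains, which oxidise iron, and light chains, which help to form the mineral core. Fth1 (chromosome 19, 9980598 to 9985098, plus strand) had values of 41798, 65113 and 98274, and was 1.56-fold higher at 2 h and 2.35-fold higher at 4 h (2.33 to 2.37). Ftl1 (chromosome 7, 45457944 to 45459884, minus strand) had values of 94383, 106218 and 80822, 1.13-fold higher at 2 h and 1.17-fold lower at 4 h (1.16 to 1.18). Within each library the value of Fth1 over that of Ftl1, not corrected for length, was 0.443 at 0 h, 0.613 at 2 h and 1.22 at 4 h. This ratio is not touched by the scaling between libraries, and it was highest at 4 h. The 2 genes together took 1.36%, 1.08% and 1.01% of all reads. The ferritin pseudogenes listed for LPS were low: Fth-ps2 had 20, 6 and 24 reads and Ftl2-ps had 17, 24 and 35 reads. Ftl1-ps1 was not found under that symbol in the LPS libraries, so its level there is unknown. How reads shared with such copies were counted is not given in the sources used here, so the ferritin levels are uncertain to that extent.

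Alas1 (chromosome 9, 106233455 to 106248654, minus strand) encodes the rate-limiting enzyme of heme synthesis outside red cell precursors. Its values were 1105, 2939 and 3325, and it was 2.66-fold higher at 2 h (2.48 to 2.86) and 3.01-fold higher at 4 h (2.85 to 3.18). Ireb2 (chromosome 9, 54863789 to 54912530, plus strand) encodes the iron regulatory protein IRP2. Its values were 689, 358 and 865, so it was 1.92-fold lower at 2 h (1.63 to 2.28) and 1.25-fold higher at 4 h (1.16 to 1.36). The low point at 2 h rested on 164 reads in the shallowest library. Between 2 h and 4 h it was 2.41-fold higher (2.05 to 2.85).

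**Figure D1:**
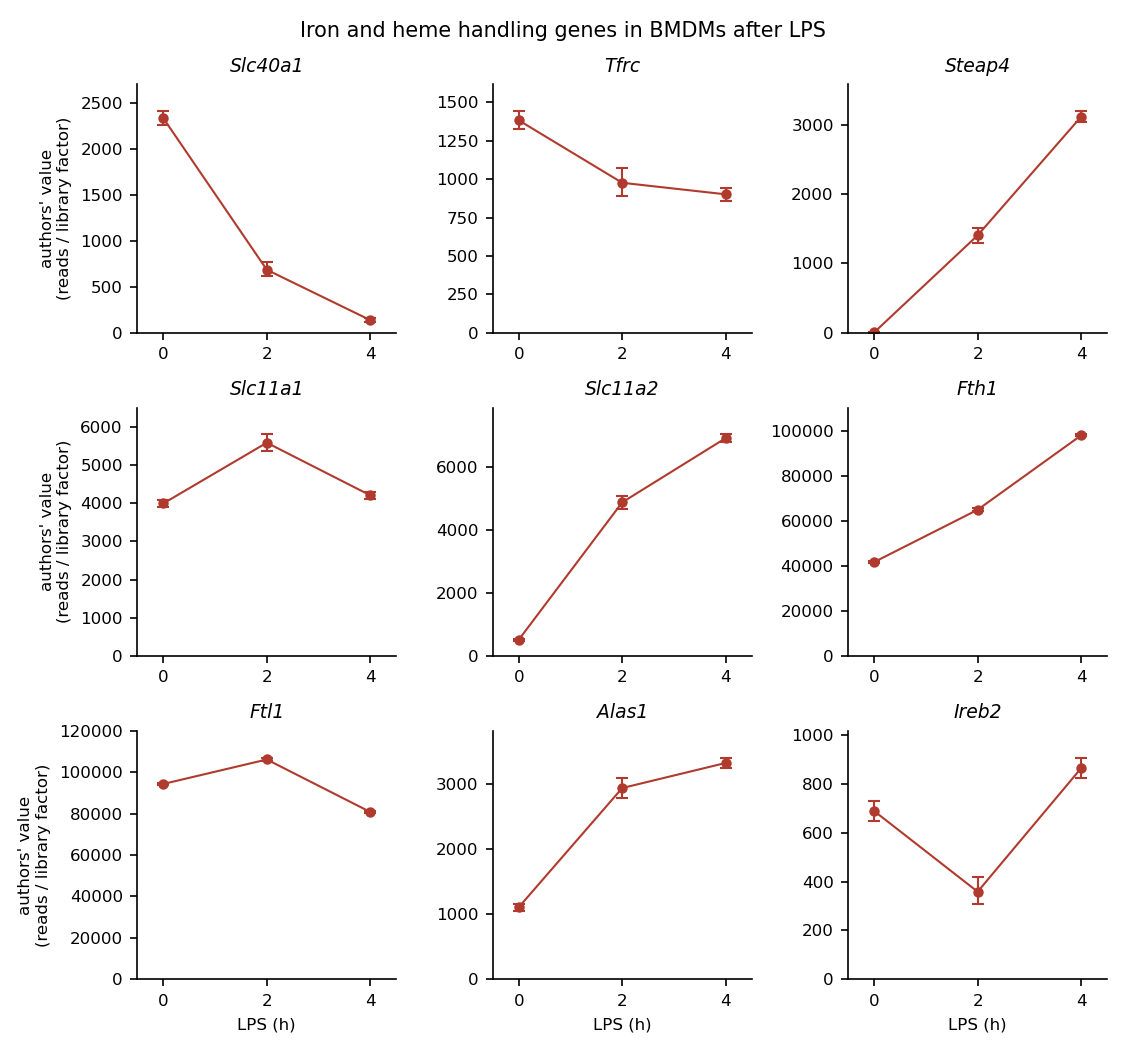
Value of each of 9 members (reads divided by the authors' library factor, linear axis from 0) against hours of LPS, 1 library per point, with 95% Wilson counting intervals; Hamp, with at most 2 reads, is not drawn. Slc40a1 goes from 2331 to 136, Slc11a2, Steap4, Fth1 and Alas1 are highest at 4 h, and Ireb2 has its low point of 358 at 2 h.

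The scaling between libraries set how many members passed 2-fold. The authors' values had totals of 10027530, 15860561 and 17747464 in the libraries of 0, 2 and 4 h. With the reads scaled to equal library totals, the median of all genes moved to -0.71 at 2 h and -0.83 at 4 h, and 2 members were at least 2-fold higher and 3 at least 2-fold lower at 4 h, where 12.8% and 44.5% of all genes were. Slc40a1 (log2 -4.91), Slc11a2 (2.93) and Steap4 (8.82) stayed past 2-fold in their directions. Fth1 (0.41) and Alas1 (0.77) were no longer past it, and Tfrc (-1.44) and Ftl1 (-1.05) were then past it downwards. Relative to the median of all genes under that scaling, Fth1 was at 1.24, Alas1 at 1.6, Tfrc at -0.61 and Ftl1 at -0.22. The direction of Ireb2 at 4 h turned to -0.50, and those of Fth1 and Ftl1 at 2 h to -0.02 and -0.49. Centring each library on its median turned Ftl1 at 4 h to 0.15.

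In AAV-Shisa3 BMDMs, 1 member rose against AAV-GFP: Alas1, whose level was 1.95-fold that of the control. Of the 8 members with a mean of at least 1 TPM, 1 was higher, 0 were lower and 7 did not pass an adjusted p of 0.05 (limma's trended test, Benjamini-Hochberg adjustment over 11218 genes). Of all genes tested, 2.23% were called higher and 4.1% lower. With unadjusted p-values below 0.05, 2 members were higher and 1 was lower, beside 8.21% and 19.8% of all genes. The AAV-Shisa3 samples both exceeded the AAV-GFP samples in 3 members and both lay below them in 3, beside 18.2% and 41.2% of all genes. The members' median log2 fold change was -0.03 and that of all genes was -0.10. An exact permutation test of 2 samples against 2 could not have gone below p = 0.333 for any single gene.

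Alas1 measured 314.95 and 307.91 TPM in AAV-GFP and 543.03 and 673.90 TPM in AAV-Shisa3. The groups did not overlap, and the AAV-Shisa3 samples lay further apart than the controls. Alas1 had a log2 fold change of 0.96 (SE 0.112, 95% interval 0.68 to 1.23, limma adjusted p = 0.0196). The call ended without the variance trend (adjusted p = 0.0563). It also ended with any of the 4 samples left out (log2 0.80 to 1.11, limma adjusted p 0.0521 to 0.18), where a lone sample was assumed to vary like the others.

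Slc40a1 measured 9.45 and 10.41 TPM in AAV-GFP and 14.31 and 14.79 TPM in AAV-Shisa3. Both AAV-Shisa3 samples were higher, with a log2 fold change of 0.51 (SE 0.112, interval 0.23 to 0.79), but the limma adjusted p of 0.0562 missed the threshold. It passed with centring on the sample median (adjusted p = 0.0354) and with the replicate number as a block (0.0419). Its level of 9.45 to 14.79 TPM was close to the bottom of the members detected. Hamp was listed at 0 in all 4 samples.

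Slc11a2 measured 194.87 and 213.38 TPM in AAV-GFP and 174.15 and 161.85 TPM in AAV-Shisa3. Both AAV-Shisa3 samples were lower, with a log2 fold change of -0.28 (SE 0.083, interval -0.48 to -0.07, limma adjusted p = 0.103). Slc11a1 measured 1186.04 and 1220.38 TPM in AAV-GFP and 1101.26 and 1253.61 TPM in AAV-Shisa3, and the groups overlapped. Tfrc measured 25.16 and 24.94 TPM in AAV-GFP and 24.00 and 25.39 TPM in AAV-Shisa3, and also overlapped. Their log2 fold changes were -0.03 (interval -0.24 to 0.18) and -0.02 (interval -0.25 to 0.21), and both turned positive with centring (0.08 and 0.10). Steap4 measured 0.20 and 0.41 TPM in AAV-GFP and 1.26 and 0.97 TPM in AAV-Shisa3. Each AAV-Shisa3 sample exceeded each control, but the mean of 0.71 TPM was under the filter and left the gene out of the fit. Its log2 fold change was 0.70 in both fits without the filter, and these differed in the call. The planned one over all rows, which limma marked as unreliable, called it higher (adjusted p = 1.09e-05), and the one without genes at 0 in every sample, added after the data were seen, did not (limma adjusted p = 0.171).

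Fth1 measured 37488.64 and 37518.80 TPM in AAV-GFP and 33531.95 and 35892.87 TPM in AAV-Shisa3, a log2 fold change of -0.11 (interval -0.33 to 0.10, limma adjusted p = 0.443) that became 0.003 with centring. Ftl1 measured 16569.21 and 16444.13 TPM in AAV-GFP and 18569.50 and 19194.84 TPM in AAV-Shisa3, a log2 fold change of 0.19 (interval -0.001 to 0.39, adjusted p = 0.18). Within each sample the TPM of Fth1 over that of Ftl1 was 2.26 and 2.28 in AAV-GFP and 1.81 and 1.87 in AAV-Shisa3. The ratio was lower in both AAV-Shisa3 samples, and it does not depend on scaling between samples. The 2 chains together took 5.41% and 5.40% of all TPM in AAV-GFP and 5.21% and 5.51% in AAV-Shisa3. The pseudogene Ftl1-ps1 was listed at 393.48 to 461.91 TPM, which was 2.37% to 2.55% of Ftl1 in the same sample, so reads may be split between them. Ireb2 measured 19.50 and 20.77 TPM in AAV-GFP and 13.43 and 19.37 TPM in AAV-Shisa3. Both AAV-Shisa3 samples were lower, one of them barely, with a log2 fold change of -0.30 (SE 0.176, interval -0.74 to 0.13, limma adjusted p = 0.313).

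**Figure D2:**
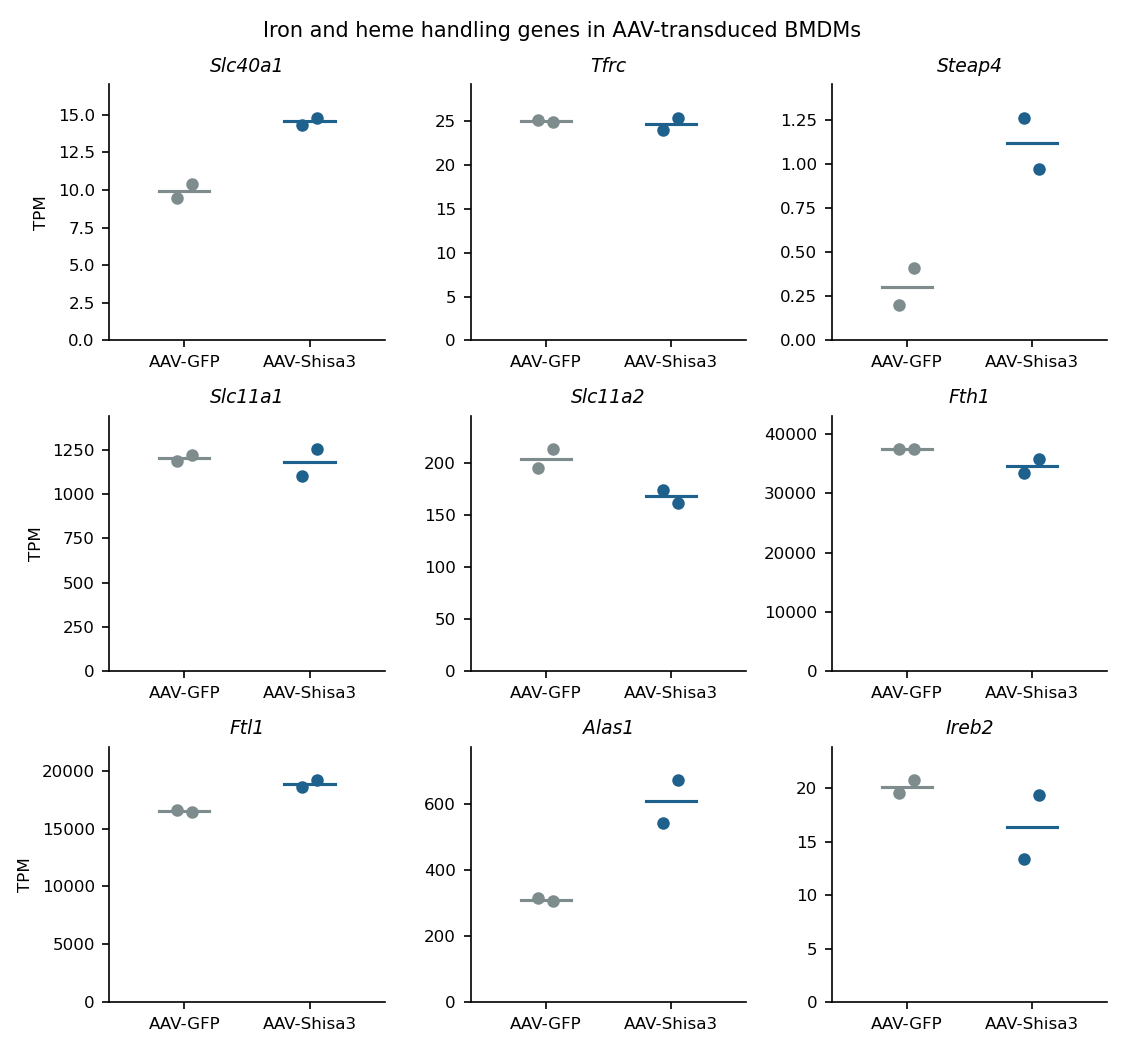
TPM of each of 9 members in the 2 AAV-GFP and 2 AAV-Shisa3 samples (points) with the group mean (line), on linear axes from 0; Hamp is at 0 in all 4. Alas1 is at 307.91 to 314.95 TPM in AAV-GFP and at 543.03 to 673.90 TPM in AAV-Shisa3, and the samples of Slc11a1 and of Tfrc overlap between groups.

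Since TPM is corrected for length, levels can be ordered between genes in the AAV samples. Fth1 was highest (33531.95 to 37518.80 TPM), then Ftl1, Slc11a1, Alas1 (307.91 to 673.90 TPM), Slc11a2 (161.85 to 213.38 TPM), Tfrc (24.00 to 25.39 TPM), Ireb2, Slc40a1 and Steap4. The ranges of neighbours in this order did not overlap, except those of Ireb2 (13.43 to 20.77 TPM) and Slc40a1 (9.45 to 14.79 TPM).

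**Figure D3:**
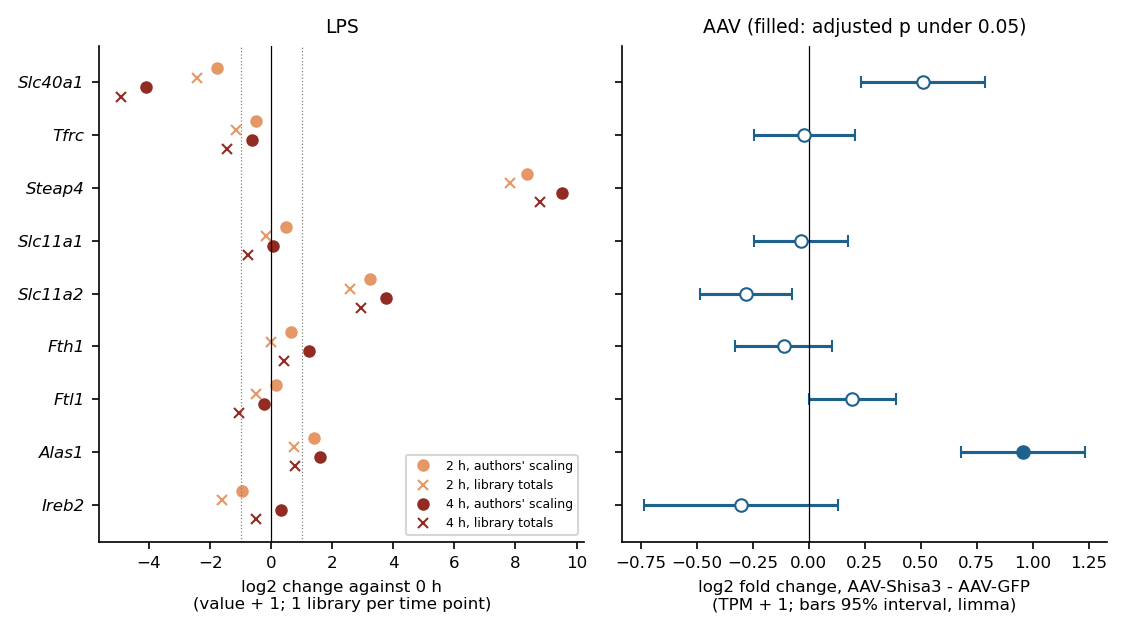
Log2 change of 9 members at 2 h and 4 h of LPS against 0 h (left, dotted lines at 2-fold, circles for the authors' scaling and crosses for equal library totals, 1 library per time point) and log2 fold change of 8 members in AAV-Shisa3 against AAV-GFP with 95% intervals (right, 2 samples per group, filled where the adjusted p is under 0.05). Slc40a1 is at -4.09 at 4 h of LPS and at 0.51 in AAV-Shisa3, and Alas1 is the filled point at 0.96.

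A wider list of 57 iron and heme genes, none of them members, gave the surroundings. In the LPS libraries 46 had a mean value of at least 1. At 4 h, 11 were at least 2-fold higher (22.2% of all genes), 12 at least 2-fold lower (23.6%) and 23 neither, with a median log2 change of -0.48. With reads scaled to library totals, 8 were at least 2-fold higher and 27 at least 2-fold lower, where 12.8% and 44.5% of all genes were. In the AAV samples 41 were tested, of which 1 was higher (2.23% of all genes), 3 were lower (4.1%) and 37 did not pass. With unadjusted p-values below 0.05, 5 were higher and 7 lower, as were 8.21% and 19.8% of all genes.

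The 7 heme synthesis enzymes kept, which act after the step of Alas1, were at least 2-fold lower in 5 cases at 4 h of LPS, beside 23.6% of all genes, and higher in 0. Alad was 3.14-fold lower (2.28 to 4.37) and Cpox 3.13-fold lower (2.40 to 4.11), while Alas1 was higher in the same libraries. The count depended on the scaling. With library totals all 7 enzymes were at least 2-fold lower, where 44.5% of all genes were. With centring on the library median fewer of the 7 were, beside 17% of all genes. The proliferation genes were also lower at 4 h on both scales given above, and their part was not tested. In AAV-Shisa3, where Alas1 was also higher, 5 of these 7 were lower in both samples, beside 41.2% of all genes, and 1 was called, beside 4.1%. This was Alad, the second enzyme of the pathway, with 12.34 and 13.03 TPM in AAV-GFP and 7.25 and 7.89 TPM in AAV-Shisa3 (log2 -0.68, limma adjusted p = 0.0345).

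Among genes of uptake, Slc39a14, a transporter of iron not bound to transferrin, was 34.3-fold higher at 4 h of LPS. Lcn2, which binds bacterial iron-chelating siderophores, was 25.2-fold higher, while the neutrophil markers, on the same scale, summed to 4745 at 0 h and 7046 at 4 h. Their part was not tested. Steap3, the endosomal ferrireductase of the transferrin cycle, was 2.88-fold lower at 4 h (2.37 to 3.53) and was also called lower in AAV-Shisa3. It measured 35.51 and 36.57 TPM in AAV-GFP and 19.58 and 16.89 TPM in AAV-Shisa3 (log2 -0.95, limma adjusted p = 0.0182). Steap4, of the same family, had higher values at 4 h of LPS and in both AAV-Shisa3 samples.

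Cp, a ferroxidase that works with ferroportin, was 112-fold higher at 4 h (96.5 to 130) while Slc40a1 was lower. Heph, the related membrane ferroxidase, had 8, 0 and 1 reads. Hfe, a partner of transferrin receptors in iron sensing, was 2.39-fold lower at 4 h of LPS and was called higher in AAV-Shisa3. It measured 21.23 and 22.93 TPM in AAV-GFP and 38.93 and 36.44 TPM in AAV-Shisa3 (log2 0.75, limma adjusted p = 0.0216).

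Fbxl5, which targets the protein of Ireb2 for degradation when iron is plentiful, was 6.0-fold higher at 4 h of LPS (5.66 to 6.37). Ncoa4, the receptor that delivers ferritin to the lysosome, was 2.61-fold lower, and Pcbp1, an iron chaperone for ferritin, was 1.49-fold higher, a direction that turned with library totals (log2 -0.24). Aco1, the other iron regulatory protein gene, was called lower in AAV-Shisa3, with 24.96 and 26.13 TPM in AAV-GFP and 17.89 and 18.68 TPM in AAV-Shisa3 (log2 -0.46, limma adjusted p = 0.0495). Centring on the sample median ended this call (log2 -0.34, adjusted p = 0.0855). Slc25a37 and Slc25a28, the mitochondrial iron importers, were 2.79-fold and 2.14-fold higher at 4 h of LPS, and neither passed 2-fold with library totals (log2 0.65 and 0.27).

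Of the genes of heme and hemoglobin handling, Hp (haptoglobin) was 52.5-fold higher at 4 h, while Cd163, the scavenger receptor for its complex with hemoglobin, was 4.26-fold lower (2.57 to 7.39). Flvcr1, a heme exporter, was 3.99-fold lower. Of the transcription factors, Spic, a regulator of iron-recycling macrophages, was 5.64-fold higher and Nfe2l2, the gene of NRF2, was 2.29-fold higher, short of 2-fold with library totals (log2 0.37). Bach1, a repressor that heme inactivates, had values of 2639, 10846 and 2174 and so was highest at 2 h.

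All 4 calls of the wider list in the AAV samples ended without the variance trend, which left the fold changes as they were, and with any of the 4 samples left out. Their log2 fold changes then ran from -1.05 to -0.85 for Steap3, 0.69 to 0.80 for Hfe, -0.49 to -0.43 for Aco1 and -0.73 to -0.62 for Alad, with limma adjusted p from 0.0903 to 0.23.

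**Figure D4:**
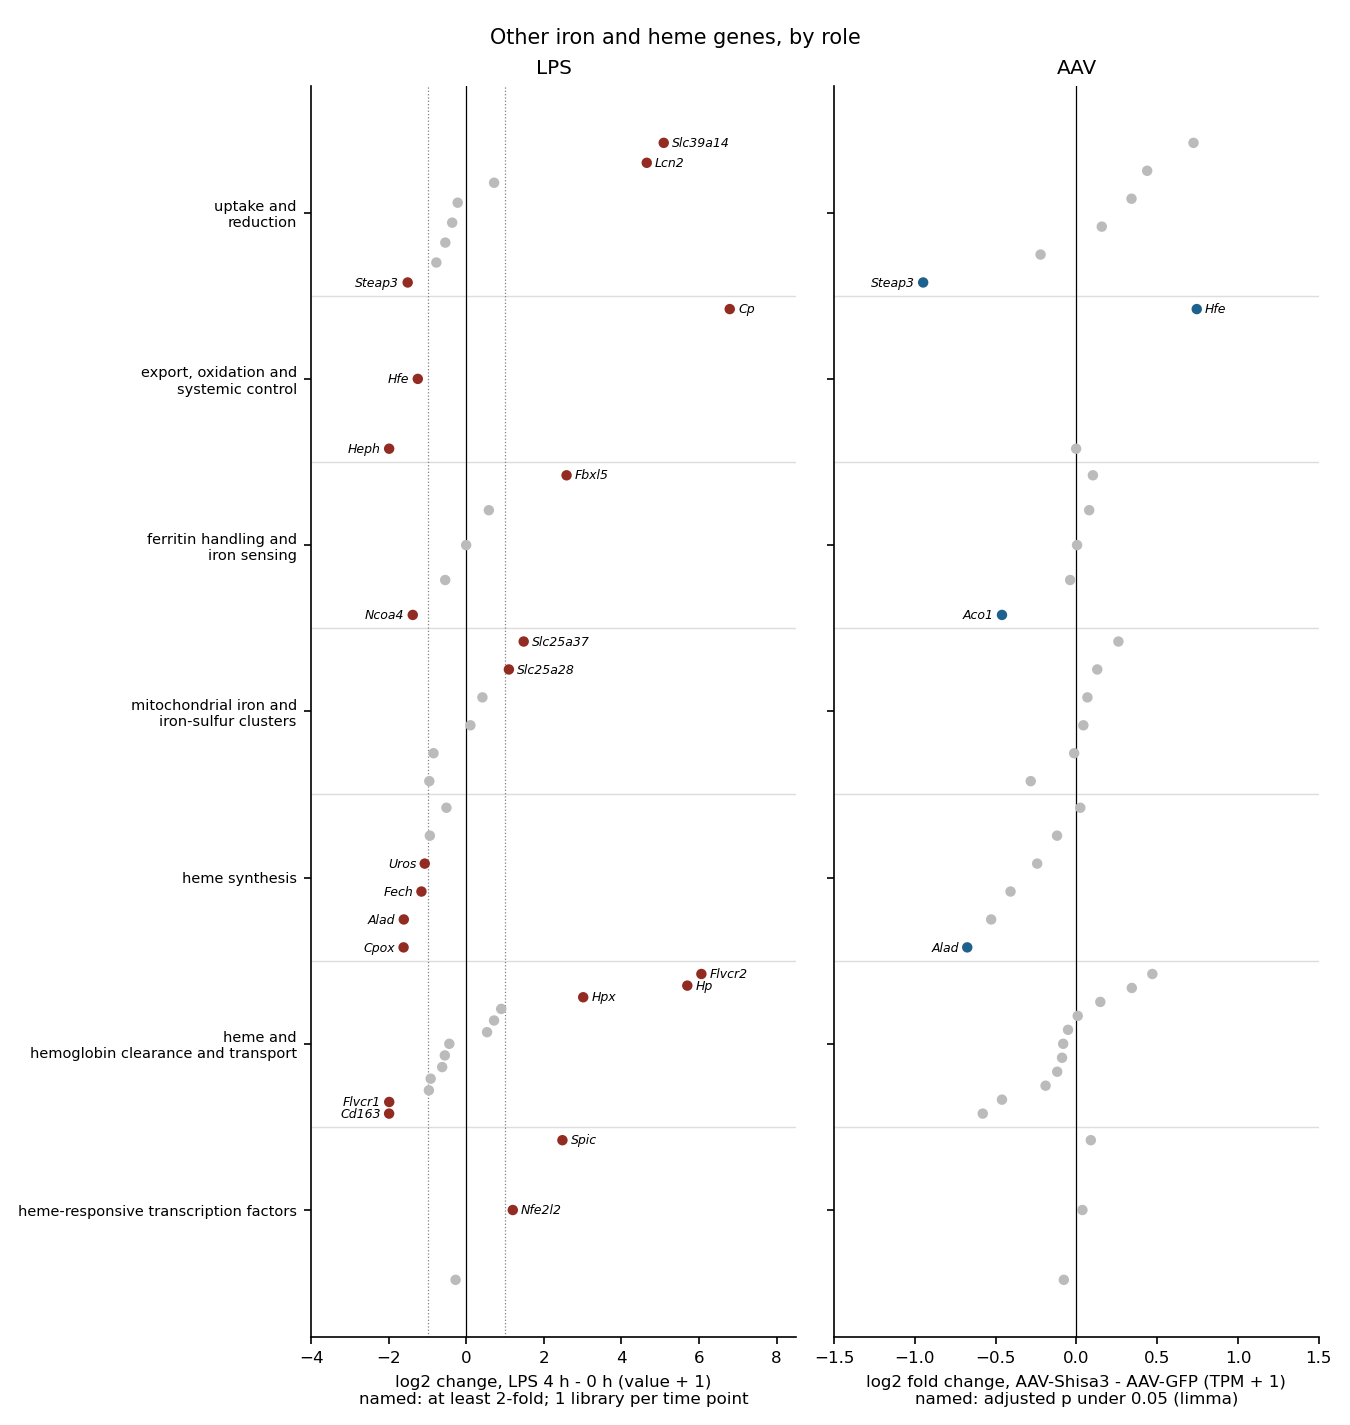
Log2 change of the wider list by role, at 4 h of LPS against 0 h (left, 44 genes, red and named at 2-fold or more, 1 library per time point) and in AAV-Shisa3 against AAV-GFP (right, 39 genes, blue and named where the limma adjusted p is under 0.05). The heme synthesis enzymes lie left of 0 at 4 h of LPS, with 4 of the 6 drawn past 2-fold on the authors' scaling.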

How the data were processed

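The authors deposited 1 value per gene for 3 LPS libraries and 4 AAV samples of mouse BMDMs. The LPS signal deposited is a read count divided by a factor per library: 100% of values were whole multiples of 1 step (tolerance 0.01), which gave back the reads. The AAV values deposited sum to 999778 to 999818 per sample and were read as TPM, which the authors do not state. The submitters' processing notes name mm9, and the aligner, counter and annotation are not given in the sources used here. The tables hold no coordinates. Positions and transcripts come from GENCODE M21 (GRCm38), which matched 99.2% of the LPS identifiers and 96.4% of the AAV symbols.

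LPS changes were taken on log2(value + 1) for genes averaging at least 1, CPM from the reads was given Wilson intervals and ratios exact intervals. For AAV, limma 3.58.1 (R 4.3.3) was fitted on log2(TPM + 1) for genes averaging at least 1 TPM, with all 4 samples and no covariate. A run on simulated data had equal noise and planted changes larger than those called here, so it does not bear on these calls. Log2 TPM fold changes understate the change of low genes.

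The members and lists were chosen with earlier results of these data known. Named genes are all members, wider-list genes past the AAV threshold and, per role, up to 3 with the largest LPS change at 4 h and more than 3 reads in the library compared against. The values of 2 wider-list genes are not reported here and are not drawn, though the list counts hold them. Genes were matched across older symbols by Ensembl identifier. Alternatives were another pseudocount, filter, scaling or centring, limma without the trend, the replicate number as a block and leaving out each sample. Python 3.11.15 with pandas 2.3.3 and scipy 1.17.1, and edgeR 4.0.16 for TMM factors, were also used.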

Additional observations from a re-analysis of the deposited data

How the results depend on the processing

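LPS differences rest on 1 library per time point, and the AAV calls on 2 samples per group. For LPS, scaling the reads to library totals gave 3 members lower at 2 h (1 as reported), 2 higher (4) and 3 lower (1) at 4 h; TMM factors gave 2 lower at 2 h. Of all genes, 13.3% were then higher and 40.6% lower at 2 h with library totals, and 26% lower with TMM factors. In the wider list, library totals gave 6 higher (11) and 13 lower (5) at 2 h and 27 lower (12) at 4 h. The wider count lower at 2 h was 2 with a pseudocount of 5, 2 with a mean of at least 5 and 3 with centring, beside 17.9%, 21.6% and 19.3% of all genes.

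For AAV, 1 member was called higher as reported, 0 without the variance trend, 2 with centring and 0 with any sample left out (0 to 0). Of the wider list, 1 was higher and 3 were lower as reported. Without the trend these were 0 and 0, and with any sample left out 0 to 0 and 0 to 0. Centring gave 3 higher and 2 lower, without Aco1, and at least 1 TPM in every sample gave 3 higher. Without a filter, over all 55352 rows, 4 members were higher and 1 lower, and in the wider list 6 and 6. Most rows then had zero residual variance, and limma itself warned that this fit is unreliable. An alternative added after seeing this left out genes at 0 in every sample (20300 genes kept), and called 0 members, and 0 higher and 0 lower in the wider list. The 2 unfiltered fits thus gave opposite readings. The replicate block gave 2 members higher, and 4 higher and 5 lower in the wider list. The share of all genes called under each AAV alternative is not given here. These counts therefore cannot be read as results about the listed genes. Same-numbered samples deviated with a correlation of 0.188 over 2 pairs only. Whether they share more than a number cannot be told from this.

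Directions that turned were those of Slc11a1 (0.082 with centring, -0.127 to 0.059 with a sample left out), Tfrc (0.095 and -0.059 to 0.019) and Fth1 (0.003 with centring). Centring moved the median of all genes by 0.116. Over single members and alternatives, 72 AAV values and 87 LPS values kept their direction and side or stayed within counting error, 39 LPS values moved beyond it, and of the AAV values 6 lost and 5 gained a call, 3 of the latter in the unreliable unfiltered fit. The causes of these changes were not tested. The LPS filter alternatives (no filter, a mean of at least 5) cannot change the value of a member kept. Their part of the 87 was therefore fixed in advance. Count tests of the AAV samples were not run, since the values are TPM.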

Other observations

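Outside the naming rule, and chosen after their values were seen, a pair of heme transport genes were near absent at 0 h of LPS. Flvcr2 had 0, 6 and 121 reads at 0, 2 and 4 h, at least 34.1-fold higher at 4 h when computed against 3 reads at 0 h. Hpx, the gene of the heme-binding plasma protein hemopexin, had 0, 0 and 13 reads, at least 3.66-fold higher at 4 h on the same floor. The related exporter gene Flvcr1 had 1255, 223 and 372 reads.

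In the AAV samples, 5 further genes had a limma adjusted p between 0.05 and 0.07, with no overlap between the AAV-Shisa3 and AAV-GFP samples. Trf (transferrin) measured 38.77 and 49.87 TPM in AAV-GFP and 64.73 and 83.13 TPM in AAV-Shisa3. Hmox1, the inducible heme oxygenase, measured 1707.80 and 1592.17 TPM in AAV-GFP and 2009.91 and 2177.85 TPM in AAV-Shisa3. Hp measured 67.92 and 77.95 against 107.81 and 94.95 TPM, with neutrophil markers also higher in both AAV-Shisa3 samples and their part not tested. Flvcr1 (14.86 and 14.30 against 10.40 and 10.23 TPM) and Slc46a1 (7.89 and 7.13 against 4.83 and 4.55 TPM) were lower in both. None of these passed the threshold as reported, and each passed it under some alternative (limma adjusted p throughout). With centring on the sample median these were Trf (0.0414) and Hp (0.0388). With at least 1 TPM in every sample they were Trf (0.0415), Hp (0.0431) and Slc46a1 (0.0499). With the replicate number as a block they were Trf (0.0146), Hmox1 (0.0436), Slc46a1 (0.0473) and Flvcr1 (0.0493). The unreliable fit over all rows passed all but Flvcr1. None passed without the trend, without genes at 0 in every sample, with a pseudocount of 0.1 or with any sample left out.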
